A study of Mus musculus with 2 samples.

Results

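The genes described here are transthyretin and 8 genes of thyroid hormone signalling: Ttr, Dio1, Dio2, Dio3, Thra, Thrb, Hr, Crym and Thrsp. They were chosen by gene name among the non-control spots of both scanner files, and the choice was made with the difference of Ttr known. The 9 genes were covered by 13 spots, 1 for each of 13 probes, out of 25917 genes measured on both arrays. All 13 probes were well above background on both arrays and none was an outlier spot. Hippocampal RNA of ICR mice, which are outbred, came as 1 sample after a sham operation and 1 after 5/6Nx, both taken 8 weeks later. 5/6Nx usually stands for 5/6 nephrectomy, the surgical removal of most kidney tissue to model chronic renal failure. The sources used here give neither the age and sex of the animals, nor how many mice made up a sample, nor how the hippocampus was dissected. Each group holds 1 array, so there is no test and no p-value, and every value describes these 2 arrays.

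Thyroid hormone reaches the brain mainly as thyroxine, the prohormone, and partly bound to transthyretin, which the choroid plexus epithelium secretes into the cerebrospinal fluid. Inside the brain, the type 2 deiodinase of glial cells converts thyroxine to the active hormone triiodothyronine, and the type 3 deiodinase, mainly of neurons, inactivates both. Triiodothyronine acts through nuclear receptors that sit on DNA with a retinoid X receptor and exchange corepressors for coactivators when hormone binds.

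Each array held 55681 probes, of which between 72.5% and 72.7% of the spots were well above background, and no spot was saturated. A difference here is the log2 signal in 5/6Nx less that in sham, each taken relative to the 75th percentile of its array. The error beside a difference (±) is the error that the scanner software assigns to the spots of both arrays, carried over to the log2 scale. It is technical and leaves out the spread between animals. Over all measured genes the median difference was 0.05, the quartiles lay at -0.23 and 0.35, and 8.18% were at least 2-fold apart, 4.89% higher and 3.29% lower in 5/6Nx. Scaling to the median probe moved the median of all genes to -0.11 and scaling to the spike-in controls moved it to -0.17. The share of the 2-fold differences that were higher was 59.8% here, 49.2% after quantile normalization, 42.3% after scaling to the median, 47.9% once a lowess trend was removed, 49.4% in the table normalized by the authors and 36.1% after spike-in scaling. Differences are therefore read relative to the other genes. The 10 markers of hippocampal neurons were all measured, with a median difference of 0.23, and 6 of them lay above 0, such as Prox1 (0.30) and Zbtb20 (0.41), and 4 below. Wfs1, a marker of CA1 pyramidal neurons, was the only one at least 2-fold apart, at -1.12, with signals of 41258 in sham and 16506 in 5/6Nx. Spink8, also of CA1, stood at -0.40. The summed level of the 10 markers, in units of the 75th percentile of the array, was 96.2 in sham and 90.2 in 5/6Nx, on the side opposite to their median. That median was 0.07 after scaling to the median probe and 0.01 after spike-in scaling.

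A few sequences show what the probes and promoters of these genes hold. The probes are 60 bases long and the scanner files place them on mm9. Whether a probe lies in coding sequence or in a UTR was not analysed here. Thra and Dio1 have more than 1 probe with unlike values, so the Thra probe whose coordinates span 807 bases of the genome, and which therefore crosses an intron, is shown with the pair of Dio1 probes that align to the genome over their full length.
Thra, chr11:98617475-98618281, plus strand: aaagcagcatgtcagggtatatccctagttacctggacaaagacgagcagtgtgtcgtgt
Dio1, chr4:106979388-106979447, minus strand: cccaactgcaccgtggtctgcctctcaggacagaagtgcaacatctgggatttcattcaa
Dio1, chr4:106964935-106964994, minus strand: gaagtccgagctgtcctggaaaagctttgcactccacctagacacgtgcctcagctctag

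Of the 9 genes, 5 had a promoter in the RefSeq table (GRCm38.p6), with 6 promoters in all. The 60 bases before the start of Dio2 and Dio3 are shown because these genes had the 2 lowest differences. In both, capitals mark a TATAAA motif, at 30 bases before the start in Dio2 and 31 in Dio3. On the forward strand of the 60 bases before the start, 2 of the 6 promoters of these genes held this motif, against 2.87% of all 32851 promoters. The motif was named after the values were seen and only 6 promoters were available, so nothing is read from that share.
Dio2, chr12:90739039-90739098, minus strand: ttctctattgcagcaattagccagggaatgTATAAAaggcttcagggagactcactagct
Dio3, chr12:110279170-110279229, plus strand: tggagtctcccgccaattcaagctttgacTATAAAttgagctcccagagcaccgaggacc

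The classic thyroid hormone response element, a direct repeat of AGGTCA with 4 bases of any kind between the copies, was in 0 of these 6 promoters over 250 bases on both strands, and in 0.0152% of all promoters. A lone AGGTCA on either strand was in 1 of the 6, against 14.0% of all promoters. That promoter belongs to Thrb, which encodes thyroid hormone receptor beta, and its window is given with the motif in capitals.
Thrb, chr14:17660764-17660793, plus strand: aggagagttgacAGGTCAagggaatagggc

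Transthyretin carried by far the largest difference of the 9 genes. Ttr encodes the carrier of thyroxine, and of retinol through retinol binding protein, in plasma and cerebrospinal fluid. Its signal was 2160 in sham and 189501 in 5/6Nx, measured by a single probe on chromosome 18 between 20828519 and 20828577. On the log2 scale the level was 0.57 in sham and 7.23 in 5/6Nx, a difference of 6.66 ± 0.20, or 101-fold. Only 5 of the 25917 measured genes, Ttr included, had as large an absolute difference. The raw signal before background subtraction was 2465 in sham against a local background of 63.0, so the low value of the sham array was well above background too. With 1 probe, no second sequence measured the transcript. The neighbouring measured genes on the chromosome, Dsg2 at -0.05 and Gm10269 at -0.24, were not 2-fold apart.

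**Figure D1:**
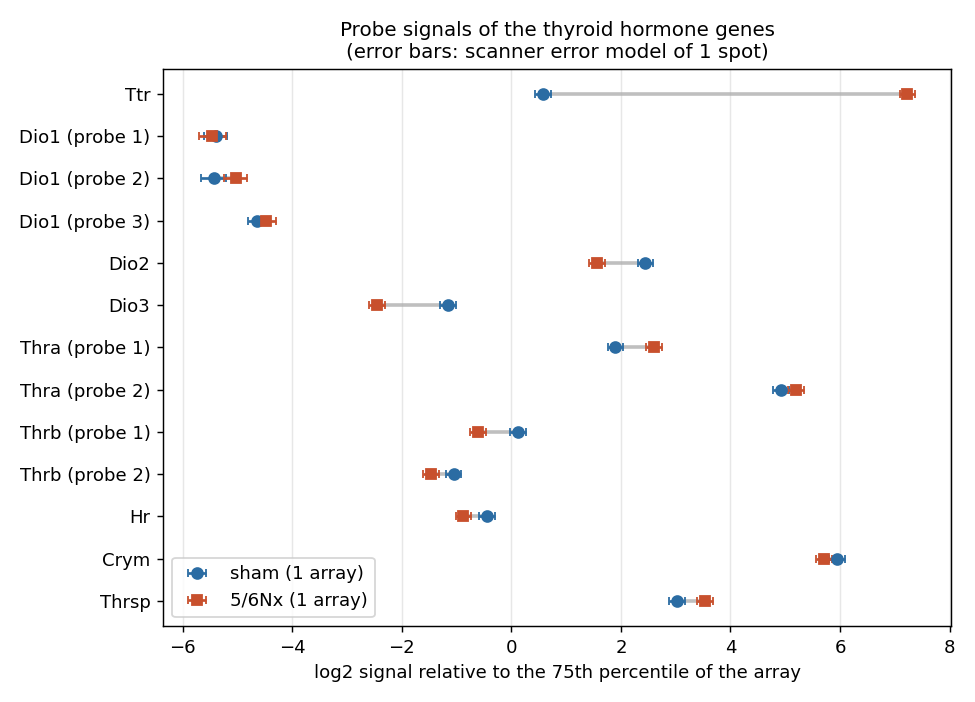
Signal of each probe of the 9 genes on the sham and the 5/6Nx array, as log2 relative to the 75th percentile of the array; horizontal bars are the scanner's error for the spot and grey lines join the arrays. Ttr runs from 0.57 in sham to 7.23 in 5/6Nx, while the arrays lie much closer together for each of the other genes; levels of different probes are not comparable.

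Among measured genes with an ordinary symbol in the RefSeq table, those whose difference lay nearest to that of Ttr over the 2 arrays were Syt10 (7.05), Clic6 (4.90), Tex22 (4.82), Kcne2 (4.81) and Ecrg4 (4.52). Clic6, an intracellular chloride channel protein, and Kcne2, a potassium channel subunit, are known from the choroid plexus epithelium and are on its marker list. Their signals were 271 in sham and 7042 in 5/6Nx for Clic6 and 27.7 and 676 for Kcne2. The sham signals of Kcne2 and of Tex22 (20.0) were near the lowest signal well above background on that array, 17.3. With no background subtraction their differences were 3.09 and 2.80, and with normexp, a model-based background correction, 3.27 and 2.97. Of all measured genes 3 had a larger difference than Ttr, and of those with an ordinary symbol 1 did, Syt10.

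Markers of the choroid plexus epithelium were higher on the same array. Of 20 listed markers besides Ttr, 19 were measured, with a median of 2.01. Of these, 16 were higher by 2-fold or more and 1 was lower, beside 4.89% and 3.29% of all measured genes. Cldn2, a claudin of this epithelium, was above background in 5/6Nx only and at least 8.64-fold higher by background-subtracted signals. The summed level of the 19 markers, in units of the 75th percentile of the array, was 30.3 in sham and 88.8 in 5/6Nx. That sum rests largely on 1 bright gene, Enpp2, with a difference of 2.01 and signals of 21575 in sham and 75712 in 5/6Nx. It therefore does not describe the list as a whole. Folr1, the folate receptor of the epithelium, stood at 3.97 and Otx2, its transcription factor, at 3.58, with 0.92 from a second probe. Aqp1, the water channel of its apical membrane, stood at 0.55 with dim signals of 108 in sham and 137 in 5/6Nx, and Kl, the klotho gene, at 1.28. Slc13a4 (-1.38) and Igfbp2 (-0.30) had values below 0. Leptomeningeal cells express both as well, and whether this bears on their values was not tested. The difference of Ttr exceeded that of the highest marker, Clic6, by 1.75. The part of these markers in the difference of Ttr was not tested. In tissue RNA, more cells of a type and more RNA per cell cannot be told apart.

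Other markers also differed between the arrays. The 13 leptomeningeal markers had a median of -2.14 with 11 at least 2-fold lower, and their summed level was 57.7 in sham and 15.2 in 5/6Nx. Of the 10 blood cell markers 9 were measured, with a median of -3.73 and 8 at least 2-fold lower, and their summed level was 211 in sham and 17.1 in 5/6Nx. Their part in the values of the thyroid hormone genes was not tested. The lists of astrocytes (0.05), striatum (0.28), oligodendrocytes (-0.33) and pan-neuronal genes (-0.28) had medians closer to 0. Of the 10 oligodendrocyte markers, 1 was higher and 2 lower by 2-fold or more, from Opalin at -2.30 to Mobp at 1.44, though another probe of Mobp stood at -0.0038. Their summed level was 240 in sham and 284 in 5/6Nx, on the side opposite to the median. Only 2 of the 10 lay above 0, Mobp and Ermn. Ermn stood at 0.81, with bright signals of 109381 in sham and 167119 in 5/6Nx, but its other probe stood at -1.22. The higher sum thus rests on genes whose probes differ. Of the 8 pan-neuronal genes, Tubb3 (-1.48) and Elavl4 (-1.03) were at least 2-fold lower, and the summed level was 373 in sham and 376 in 5/6Nx. In the astrocyte list, sums were 314 in sham and 331 in 5/6Nx.

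**Figure D2:**
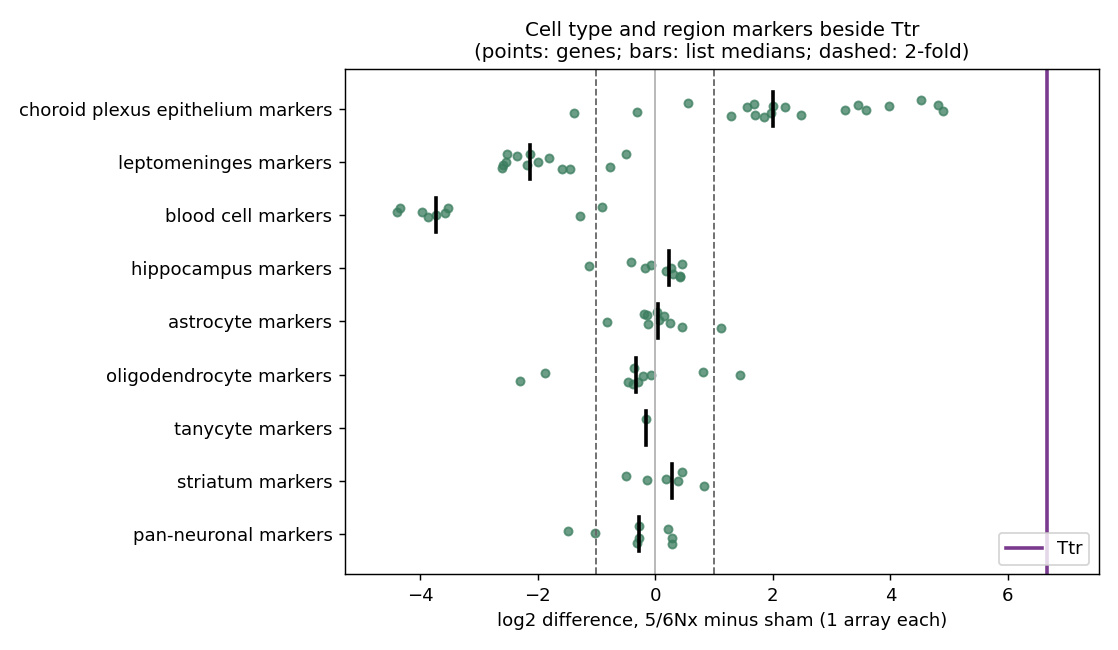
Differences (log2, 5/6Nx minus sham) of the measured genes of 9 marker lists, 1 point per gene, with black bars at list medians, dashed lines at 2-fold and a purple line at Ttr. Choroid plexus markers reach up to 4.90, below Ttr at 6.66, and leptomeningeal and blood cell markers lie below 0.

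The deiodinases, the selenoenzymes that activate and inactivate thyroid hormone, differed among themselves. Dio3, which inactivates the hormone, had a signal of 654 in sham against 230 in 5/6Nx at the probe chr12:111518792-111518851. The difference was -1.31 ± 0.21, or 2.47-fold lower in 5/6Nx, and 4.31% of all measured genes had as large an absolute difference. It is the only gene of the 9 that was at least 2-fold lower, and it stayed past 2-fold under each of the 10 other processing settings, between -1.11 and -1.52. Dio3os, the noncoding transcript on the opposite strand beside Dio3, had values of -0.30 and -0.50 from 2 probes, both below 0 but within 2-fold.

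Dio2, the activating enzyme, had a signal of 7918 in sham and 3715 in 5/6Nx, from 1 probe at chr12:91963235-91963294. The difference was -0.89 ± 0.20, just short of the 2-fold threshold. It passed that threshold after scaling to the median (-1.05) and to the spike-in controls (-1.11). Of all measured genes, 10.4% had as large an absolute difference. The markers of astrocytes, the main source of Dio2 in the hippocampus, had a median of 0.05, with Gfap at 1.12 and Aqp4 at -0.83. Tanycytes, the other glial cells rich in Dio2, line the third ventricle: of their 3 markers only Rax was measured, at -0.15, and Gpr50 and Six6 were not well above background on either array.

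Dio1, the deiodinase of liver, kidney and thyroid, was dim. Its 3 probes had signals of 34.5, 33.7 and 58.3 in sham and 28.8, 38.6 and 56.7 in 5/6Nx, where the lowest signals well above background were 17.3 and 17.1. Their differences were -0.06 ± 0.32, 0.40 ± 0.31 and 0.16 ± 0.25, with the probe that aligns over 37 bases first and the brightest last. The sign differed between probes, and that of the brightest probe turned after quantile normalization (-0.04), removal of the lowess trend (-0.06) and spike-in scaling (-0.06) and in the authors' table (-0.04). No direction can be given for Dio1.

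The receptor genes lay on opposite sides of 0, both within 2-fold. Thra encodes receptor alpha, the main receptor form of the brain, and also a splice form that binds no hormone. Its probe at chr11:98626356-98626415 gave 44120 in sham and 46430 in 5/6Nx, a difference of 0.27 ± 0.20. The intron-crossing probe gave 5420 and 7678, a difference of 0.70 ± 0.20. The probes therefore shared a sign and differed in size by more than the scanner's error of either. Nr1d1, which overlaps Thra on the opposite strand, stood at 0.58.

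Thrb had 2 probes, at chr14:18868800-18868859 and chr14:18869432-18869491. The first gave 1574 in sham and 826 in 5/6Nx, a difference of -0.73 ± 0.20. The second gave 699 and 460, a difference of -0.40 ± 0.20. Both probes were lower in signal on the 5/6Nx array, and the difference of the first, which represents the gene, stayed between -0.65 and -0.95 under the other settings that keep single probes. The mean over both probes was -0.57.

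Genes known to respond to or bind the hormone within cells showed no shared direction. Hr, hairless, encodes a nuclear corepressor that binds thyroid hormone receptors and is induced by the hormone in the developing brain. Its signal was 1070.5 in sham and 690 in 5/6Nx, a difference of -0.43 ± 0.20. Thrsp, the Spot 14 gene of fatty acid synthesis, had 11865 in sham and 14613 in 5/6Nx, a difference of 0.50 ± 0.20. Crym, mu-crystallin, binds triiodothyronine in the cytosol, and it had 89533 in sham and 65851 in 5/6Nx, a difference of -0.24 ± 0.20. Each of these 3 values is within 2-fold, and 28.3% or more of all measured genes had as large an absolute difference.

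In total 2 of the 9 genes were at least 2-fold apart, beside 8.18% of all measured genes. Since the genes were chosen with these differences known, nothing is read from that share. Without Ttr the remaining 8 genes had a median of -0.34 and lay between -1.31 and 0.50, beside a median of 0.05 over all genes. Of the 9 genes, 4 lay above 0 and 5 below.

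**Figure D3:**
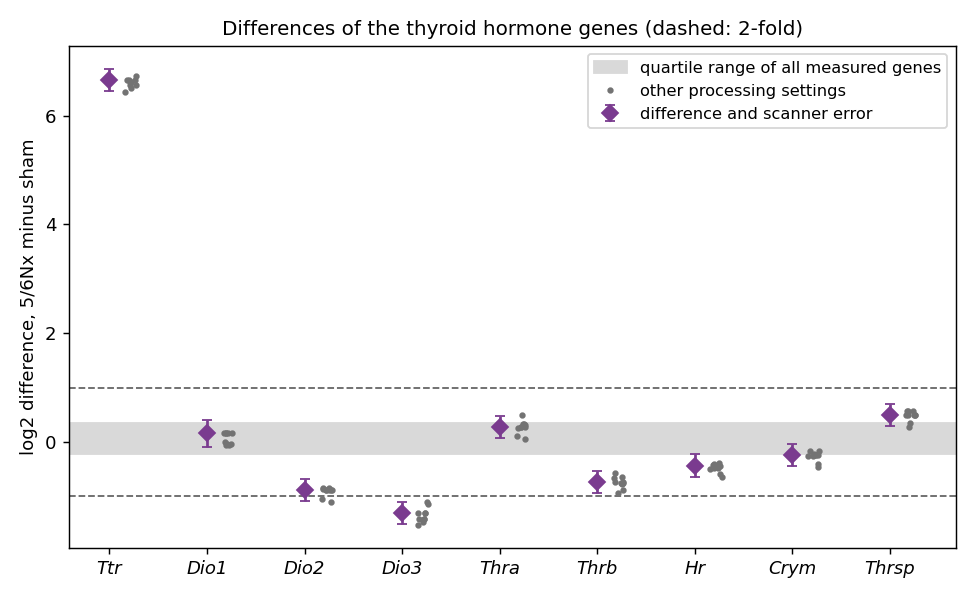
Difference (log2, 5/6Nx minus sham) of the probe that represents each of the 9 genes (diamonds, with the scanner's error), with grey points for the 10 other processing settings, dashed lines at 2-fold and a grey band between the quartiles of all measured genes. Ttr stands at 6.66, Dio3 at -1.31 and Dio2 at -0.89, and the settings move each gene by less than the distance between Ttr and the rest.

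The other genes of thyroid hormone handling and response were described in 7 lists of 90 genes, of which 77 were measured. Of these, 3 were higher and 3 lower by 2-fold or more, together 7.79%, close to the 8.18% of all measured genes. The median over the 77 was 0.04, beside 0.05 over all genes.

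All 10 transporter genes were measured, with a median of 0.23 and 2 of 10 at least 2-fold higher, beside 4.89% of all measured genes. Slc16a10, the monocarboxylate transporter MCT10 of aromatic amino acids and triiodothyronine, stood at 1.45 with dim signals of 29.2 in sham and 69.4 in 5/6Nx. Its difference was within 2-fold with normexp (0.65) and with no background subtraction (0.64). Slc7a8, the light chain LAT2 of an amino acid transporter that also carries thyroid hormone, stood at 1.18, with signals of 1848 and 3635, and at 0.96 after spike-in scaling. Slco1c1, the thyroxine carrier of the blood-brain barrier and choroid plexus, had 2 probes of unlike sign, with -0.28 from the brighter. Slco4a1 was at -0.57 and Slco1a4 at 0.49.

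Of the other binding proteins, Serpina7 and Alb, the plasma carriers made by the liver, were not well above background on either array. Rbp4, which binds retinol and not thyroid hormone and circulates in complex with transthyretin, was 2.50-fold lower in 5/6Nx, at -1.32, with signals of 10790 in sham and 3749 in 5/6Nx. It thus lay on the side opposite to Ttr. The choroid plexus markers (median 2.01) lay on the side of Ttr and the leptomeningeal markers (-2.14) on that of Rbp4. The part of these markers in either value was not tested. The enzymes Aldh1a1 (-0.20), P4hb (-0.16) and Pkm (0.12), which can bind thyroid hormone, were within 2-fold.

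Genes needed to make and turn over the deiodinases were close to 0. Of 12 listed, 11 were measured, 0 were at least 2-fold apart and the median was -0.04. Those with the largest values were Usp33 (-0.39), a deubiquitinase of the type 2 enzyme, Sult1a1 (0.34), a sulfotransferase, Sepsecs (0.30), which makes the selenocysteine tRNA, and Secisbp2 (0.30), which helps to decode selenocysteine. Iyd, the iodotyrosine deiodinase, was above background in 5/6Nx only, at a dim signal of 33.9, and at least 2.25-fold higher. That bound holds for background-subtracted signals and rests on a dim spot.

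Receptor partners and coregulators were all measured, and 13 of 15 lay above 0, beside 55.4% of all measured genes. The median was 0.19 and 0 of 15 were at least 2-fold apart. The highest were Gps2 (0.51) and Tbl1xr1 (0.46), subunits of the corepressor complex, the coactivator Crebbp (0.45) and the deacetylase Hdac3 (0.41). The median was 0.03 after scaling to the median and -0.03 after spike-in scaling, so the side on which this list lies depends on the scaling. Ncor1, a corepressor itself, stood at 0.35, and Rxra, Rxrb and Rxrg at 0.21, 0.27 and -0.06. Other probes of Ncor1, Rxra and Rxrg stood as low as -0.48, -0.58 and -0.72, so the count above 0 depends on the probe as well.

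Of 18 genes known to respond to the hormone in brain, 17 were measured, with a median of -0.14. Of these 17, 13 lay below 0, while 55.4% of all measured genes lay above 0. Only Cbr2, a carbonyl reductase, was at least 2-fold apart, at -1.70, with -0.91 from its second probe. Nefh (-0.94) and Nefm (-0.70), neurofilament subunits, and Reln (-0.47), the layering signal of the developing cortex, followed. Klf9, a transcription factor that the hormone induces directly in neurons, stood at 0.38, and Nrgn, neurogranin, at -0.14. Mbp (-0.08) and Camk4 (-0.09), counted below 0, had other probes as high as 0.38 and 0.33. The myelin genes of the list, such as Mbp (-0.08) and Mag (-0.45), lay beside the oligodendrocyte list, which shares them and had a median of -0.33. Their part in the list's median was not tested.

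Genes that respond to the hormone mainly in liver, fat and muscle had a median of 0.00299 over 10 measured of 13. Fasn, fatty acid synthase, stood at -0.75, and the uncoupling proteins Ucp2 and Ucp3 at 0.54 and 0.56, though the second probe of Ucp3 stood at -0.15. Ucp1, the uncoupling protein of brown fat, was above background in sham only, at a dim signal of 64.6, and at least 3.29-fold lower. This bound, too, holds for background-subtracted signals and rests on a dim spot. Pck1 was not well above background, and G6pc1 was not matched under that symbol.

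The last list holds genes of the hypothalamus, pituitary and thyroid, and 10 of its 16 genes were measured, with a median of -0.06. Tg, thyroglobulin, was at least 2-fold higher, at 1.45, with dim signals of 66.0 in sham and 157 in 5/6Nx, and was within 2-fold with normexp (0.95) and with no background subtraction (0.91). Trhr, the receptor of thyrotropin-releasing hormone, stood at -0.95 and Foxe1, a thyroid transcription factor, at 0.90. Cga, the glycoprotein hormone alpha chain of the pituitary, was above background in 5/6Nx only and at least 3.45-fold higher, and Pax8 likewise and at least 1.71-fold higher. Both bounds hold for background-subtracted signals and rest on dim spots, with 52.0 for Cga and 25.8 for Pax8 in 5/6Nx. The lowest signal well above background on that array was 17.1. Tshb, Tshr, Duoxa2 and Nkx2-1 were not well above background on either array.

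**Figure D4:**
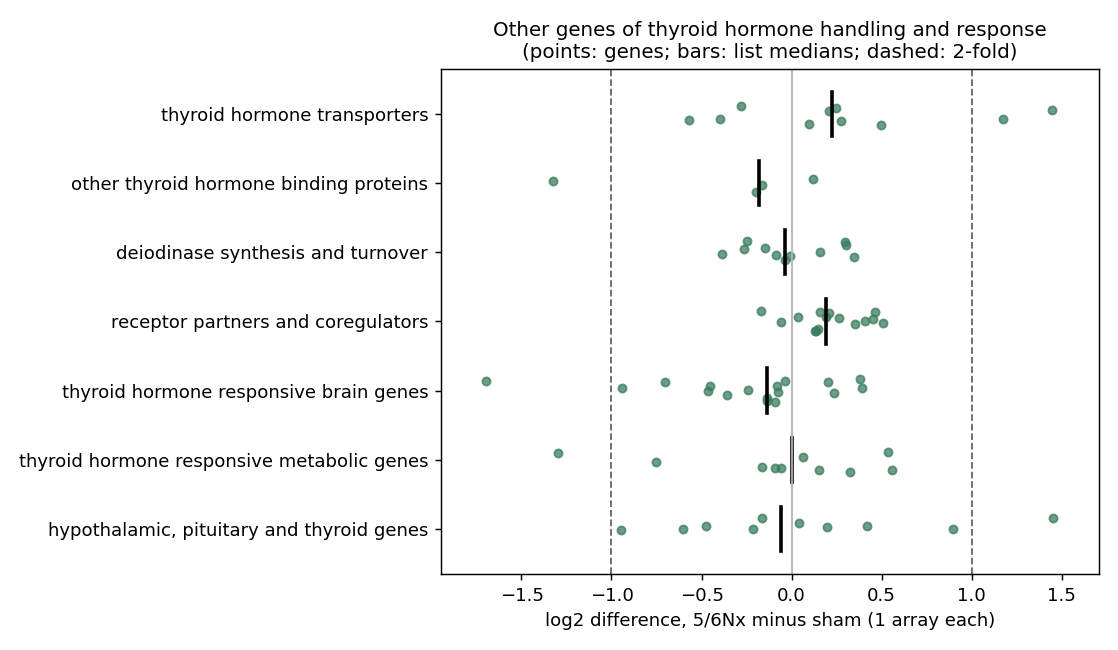
Differences (log2, 5/6Nx minus sham) of the 77 measured genes of 7 lists of thyroid hormone handling and response, 1 point per gene, with black bars at list medians and dashed lines at 2-fold. The 6 genes past the dashed lines are split between the sides, with 3 higher and 3 lower.

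Position on the chromosome was a property that the choice of genes did not use. The nearest measured genes before and after each of the 9, taken from the order in the RefSeq table, gave 18 neighbours. Their median was 0.27, beside 0.05 over all measured genes. At least 2-fold apart was 1 of the 18, beside 8.18% of all measured genes, and nothing is read from that count. It was Anks4b, beside Crym, at 1.60. Anks4b was dim, with a log2 level of -5.95 in sham, near that of Tex22 (-6.18).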

How the data were processed

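Cy3-labelled cRNA was made from total RNA, per the labels' protocols, and each sample was read on its own 1-colour Agilent array. The deposited scanner files give a linear intensity for each spot, from which the local background and a spatial trend had been subtracted, per the file headers. These name Feature Extraction 10.7.1.1, and the submitters' processing notes 9.5.1.1. The authors' deposited table of normalized intensity has 2 columns of equal distribution, by a method not given in the sources used here, and served as an alternative.

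Control spots were dropped, as were outlier spots, 105 on the sham array and 97 on the other. The log2 signals of an array were centred on its 75th percentile and averaged over the spots of a probe. Names came from RefSeq (GRCm38.p6): 27235 by accession, 3581 by symbol, 565 by synonym, and 24300 by the name in the file. The brightest probe well above background represents a gene, and a gene is measured when that probe is well above background on both arrays. A gene above background on 1 array is given as a bound, against the higher of the lowest signal well above background and its own signal on the other array. At least 2-fold is a size, not a test. The members and lists were chosen with earlier results of these data known. All 9 genes are named with every probe. From each list the genes at least 2-fold apart and up to 4 of the largest differences are named, and as most like Ttr the 5 nearest by difference among genes with an ordinary symbol in the RefSeq table. Slco1c1, Klf9, Nrgn, Camk4, the myelin genes, Ncor1 and the retinoid X receptors were named after their values were seen. So were Kl, Aqp1, Otx2, Enpp2, Slc13a4, Igfbp2, Prox1, Spink8 and the motifs. Some genes that the rule takes are not reported here. As alternatives, signals were scaled to the median, quantile normalized, freed of a lowess trend (span 0.3), corrected by normexp (limma 3.58.1, offset 50) or left without background subtraction. Others were the authors' table, the mean over probes, no filter, retention of outlier spots, the thresholds 1.5-fold and 3-fold, and scaling to the median of 8 spike-in probes. Calculations used Python 3.11.15 and were tested on simulated data. The number of arrays limits the precision.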

Additional observations from a re-analysis of the deposited data

How the results depend on the processing

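No paired analysis was possible because there was 1 array for sham and 1 for 5/6Nx, and for the same reason no array could be left out. A value was taken to have moved when it changed by more than 0.20, the median SD between probes of 1 gene, or, for a count, by more than 1.5 times. The 5 genes named as most like Ttr, Ttr and Dio3, the 6 pathway genes at least 2-fold apart and the medians of the blood cell, leptomeningeal and choroid plexus lists kept their side of 0 under the 10 alternatives, a pattern that the selection for size on the same arrays favours. Of the 9 genes, Dio1 did not: it ran from -0.06 to 0.17. The spike-in scaling was chosen after seeing the data and moves every gene by 1 constant: Ttr stood at 6.44 and the median of the choroid plexus markers at 1.79. Of the 9 genes, 4 were apart at 1.5-fold and 1 at 3-fold, while 12 and 1 of the pathway genes were, and 11 pathway genes were at least 2-fold apart with no filter, which admits more genes. Signal over background limits what dim probes such as those of Dio1 show. In the remaining results, 64 values moved. Part of these moved under spike-in scaling, whose constant is larger than 0.20: Crym, for example, went from -0.24 to -0.46. For the others the cause was not tested.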
